A study of Mus musculus with 14 samples.

Results

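The DNA replication machinery was examined through 42 genes, named by their symbols in the deposited tables, out of 54446 gene identifiers in all. They encode the 6 subunits of the MCM helicase, the 6 subunits of the origin recognition complex, 3 licensing factors or inhibitors of licensing, 8 helicase activation factors, the sliding clamp with its 5 loader subunits, 8 polymerase and primase subunits, 2 enzymes that join Okazaki fragments and the 3 subunits of the single-strand binding protein RPA. The genes were chosen by name, with earlier results of these data known. Each symbol matched 1 identifier, and all 42 were among the 18232 genes that were tested.

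Bulk RNA-seq was taken from feeder-free E14 mouse embryonic stem (ES) cells in serum and LIF that received INK128, an inhibitor of the growth kinase mTOR (mTORi), at 200 nM. Mouse ES cells under mTORi serve as a model of diapause, the paused state of the early embryo. Wild-type cells were collected untreated (0 h) and after 24, 72 and 144 h, and cells labelled *Tet1/2* DKO, in the same E14 background, at 0, 24 and 72 h. Each of the 7 groups had 2 libraries, 14 in all. The DKO line was made by Cas9 deletion in E14 cells, with clones grown from single sorted cells, so a difference from wild type also compares 1 derived line with its parent. Levels are given on 2 scales. Spike-in normalized TPM is the transcript abundance per length, multiplied by 1 factor per library that the authors used to scale to synthetic ERCC RNAs added to the samples. Each extraction took the same number of cells and each library the same mass of RNA, and the sources do not say at which step the ERCC mix went in, so whether this scale follows transcript per cell was not tested. Plain TPM adds up to the same total in every library and gives the share of the transcriptome. Fold changes are log2 of (TPM + 1), with n = 2 libraries a group, and a gene was called at a limma adjusted p under 0.05.

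Chromosomes are copied once per cell cycle from origins. In G1 the origin recognition complex, with CDC6 and CDT1, loads the MCM ring on DNA, which licenses the origin, and geminin holds CDT1 in check after that. In S phase the kinase CDC7 with DBF4 activates the ring, and CDC45 and the GINS complex join it to form the running helicase. Polymerase alpha starts new strands, and polymerases delta and epsilon extend them on the clamp PCNA, which the RFC complex loads. ES cells divide fast with a short G1, and many of these genes are targets of E2F transcription factors, which act at the entry to S phase.

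Across the series the factors ran from 1 in a wild-type 144 h library to 2.81 in a DKO 0 h library, and replicates of 1 group differed in their factor by up to 1.65-fold (DKO 24 h). The summed level of 7 ES cell markers was 2805 to 7062 spike-in normalized TPM in every library. The 6 feeder fibroblast markers summed to 2.39 to 42.1, of which all but *Thy1* and *Col1a1* stayed under 1, 4 trophectoderm markers to 7.83 to 22.0 with *Elf5* under 1, and 5 mesoderm and neural markers to 10.2 to 39.3 with *Mesp1* under 1. In wild type the mesoderm and neural sum went from 32.5 and 38.4 at 0 h to 15.3 in both 144 h libraries, with *Nes* at 19.7 and 20.5 and then 4.82 and 3.82, the feeder sum from 17.5 and 12.2 to 6.21 and 4.56 and the trophectoderm sum from 15.4 and 19.6 to 7.93 and 7.83. The mesoderm and neural sum on plain TPM was 15.4 and 18.2 at 0 h and 14.3 and 15.3 at 144 h. Primitive endoderm markers (5 genes) varied from 11.1 to 267, highest in a wild-type 24 h library. The part of these marker lists in the results was not tested. *Tet2* was 210.4 and 203 in wild type and 53.9 and 52.7 in DKO at 0 h, and *Tet1* was 416 and 403 in wild type and 427 and 349 in DKO. On this scale the *Tet1* libraries of the genotypes overlapped at 0, 24 and 72 h. On plain TPM, where *Tet1* was 197 and 191 in wild type and 152 and 147 in DKO at 0 h, the DKO pair was under the wild-type pair at each of these times, with no overlap. A gene-level TPM also counts reads outside the deleted part, so it does not check the *Tet1* deletion, which the study tested by PCR and western blot, measures not used here. The RNA comes from mixed cells, so a fall in a transcript can be fewer cells in S phase or less RNA in each cell, which cannot be told apart.

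Another feature looked at was the E2F motif in the promoter, chosen, like the genes, with earlier results of these data known. The promoters in the RefSeq table of GRCm38.p6, 250 bases before to 50 after the start site, were searched for it in its forms TTTCGCGC and TTTGGCGC on both strands. Of the 42 genes, 34 had an entry, and 10 of these 34 (29.4%) held a match, against 0.929% of the 27025 genes in the table. The 10 are *Mcm3*, *Mcm5*, *Mcm6*, *Mcm7*, *Orc1*, *Cdt1*, *Rfc3*, *Pola1*, *Pole2* and *Lig1*. To show what such a match looks like in a subunit of the helicase and in a polymerase, 4 stretches upstream of the start site and outside every annotated gene are printed 5′ to 3′ on the strand of the gene, with the motif in capitals. The capitals in *Mcm5* and in the first *Mcm6* stretch hold 2 overlapping matches, 1 on each strand. The *Mcm5* stretch is chr8:75109330-75109393 on the plus strand. On the minus strand, the *Mcm6* stretches are chr1:128359778-128359841 and chr1:128359719-128359778, and the *Pola1* stretch is chrX:93632260-93632319.
Mcm5: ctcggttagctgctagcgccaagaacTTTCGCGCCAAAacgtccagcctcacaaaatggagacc
Mcm6 distal: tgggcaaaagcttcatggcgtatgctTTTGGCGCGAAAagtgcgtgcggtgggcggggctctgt
Mcm6 proximal: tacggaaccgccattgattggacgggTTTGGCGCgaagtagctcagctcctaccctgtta
Pola1: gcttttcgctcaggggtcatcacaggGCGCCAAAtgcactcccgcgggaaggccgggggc
A match is a description and does not show binding. The changes of the 10 genes with a match overlapped those of the 24 without. In wild type at 144 h against 0 h they ran from −1.44 (*Lig1*) to −0.44 (*Pola1*) with a match and from −1.75 (*Cdc6*) to −0.50 (*Pold1*) without, with medians of −1.09 and −1.09 on the spike-in scale.

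In untreated wild-type cells the 42 genes spanned a range from 760.5 ± 59.3 spike-in normalized TPM (SD, n = 2) for *Pcna* to 30.3 ± 2.17 for *Gins3*. The 6 MCM genes took 6 of the 7 highest places, between 396 ± 15.1 (*Mcm4*) and 631 ± 25.3 (*Mcm3*), within 1.59-fold of each other. Their products form 1 ring with a single copy of each. *Lig1* followed at 394 ± 33.2 and *Rpa1* at 319 ± 7.65. *Pold1* (125 ± 5.11) and *Pold2* (137 ± 21.5), of 1 polymerase, lay close too, while subunits of some other complexes were less even. The 4 GINS genes ran from 30.3 ± 2.17 (*Gins3*) to 176 ± 25.4 (*Gins4*), and the kinase *Cdc7* was at 41.2 ± 1.47 beside 279 ± 31.4 for its activator *Dbf4*. In the order of levels, 29 of the 41 neighbouring pairs overlapped between their libraries, so the order holds over steps and not from gene to gene.

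Summed over the 42 genes, wild-type cells held 9637 and 9298 spike-in normalized TPM at 0 h. The sum was 5709 and 7005 after 24 h, 6744 and 5423 after 72 h and 4461 and 4045 after 144 h. The 144 h mean was 44.9% of the 0 h mean. As a share of the library the same genes were 0.456% and 0.440% at 0 h, 0.398% and 0.378% after 24 h, 0.408% and 0.364% after 72 h, and 0.417% and 0.405% after 144 h. The DKO sums were 13005 and 12722 at 0 h, 8919 and 5832 after 24 h and 10497 and 7416 after 72 h, with shares of 0.462% and 0.536%, then 0.399% and 0.430%, then 0.414% and 0.429%. On both scales no treated library reached the untreated libraries of its genotype, and the spike-in normalized sum fell by far more than the share in wild type at 144 h, where the share was 91.6% of the 0 h mean.

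**Figure D1:**
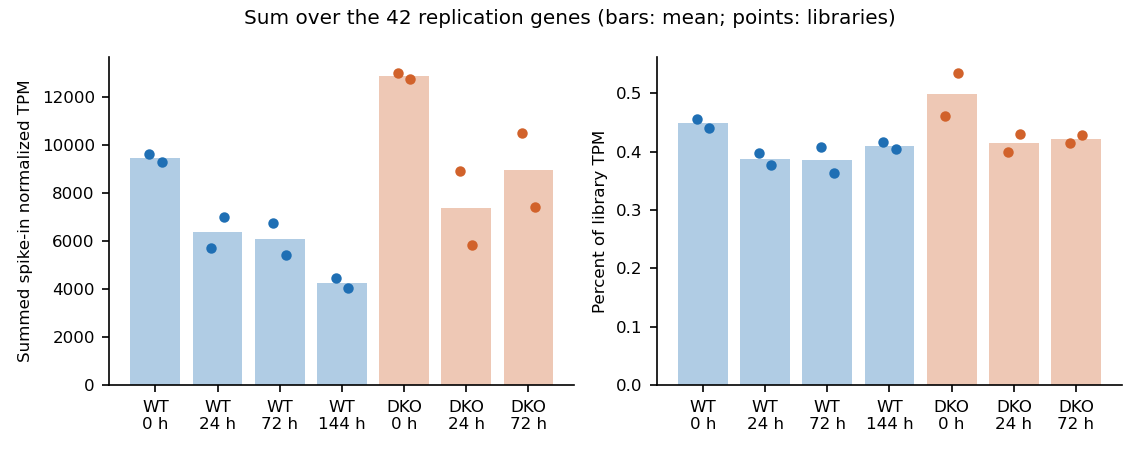
Sum over the 42 replication genes in each of the 14 libraries, as spike-in normalized TPM (left panel) and as percent of the library TPM (right panel), with bars at the mean of 2 libraries and points for libraries. The wild-type sum falls to 44.9% of its 0 h mean at 144 h on the left, and its share on the right stays at 91.6%.

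Which replication genes fell over the longest mTORi treatment was asked by comparing wild type at 144 h with 0 h. On the spike-in scale 37 of the 42 genes were called lower and 0 higher, against 50.5% of all genes called lower, and the median change was −1.11 against −0.83 over all genes. On plain TPM the picture split, with 6 called lower (11.7% of all genes) and 4 higher (15.6% of all genes) and a median of −0.11 against 0.05. Of the 42 changes on the spike-in scale 37 lay below the median of all genes. Without wild-type 144 h replicate 2, 20 genes were called lower on the spike-in scale (21.5% of all genes in that fit). Leaving out any other of the 4 libraries left 29 to 31 (23.9% to 34.9% of all genes). With the replicate number as a block within each genotype, 41 of the 42 were called lower on the spike-in scale (66.3% of all genes), all but *Pola1*. On plain TPM the block called 10 lower (15.6% of all genes), with *Gins1*, *Pcna*, *Lig1* and *Rpa1* added, and 5 higher (19.9% of all genes), with *Orc3* added. On plain TPM without the block, where 10 were called in all, 6 genes were called without wild-type 0 h replicate 2 (17.7% of all genes) and 6 without wild-type 144 h replicate 2 (11.9%).

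**Figure D2:**
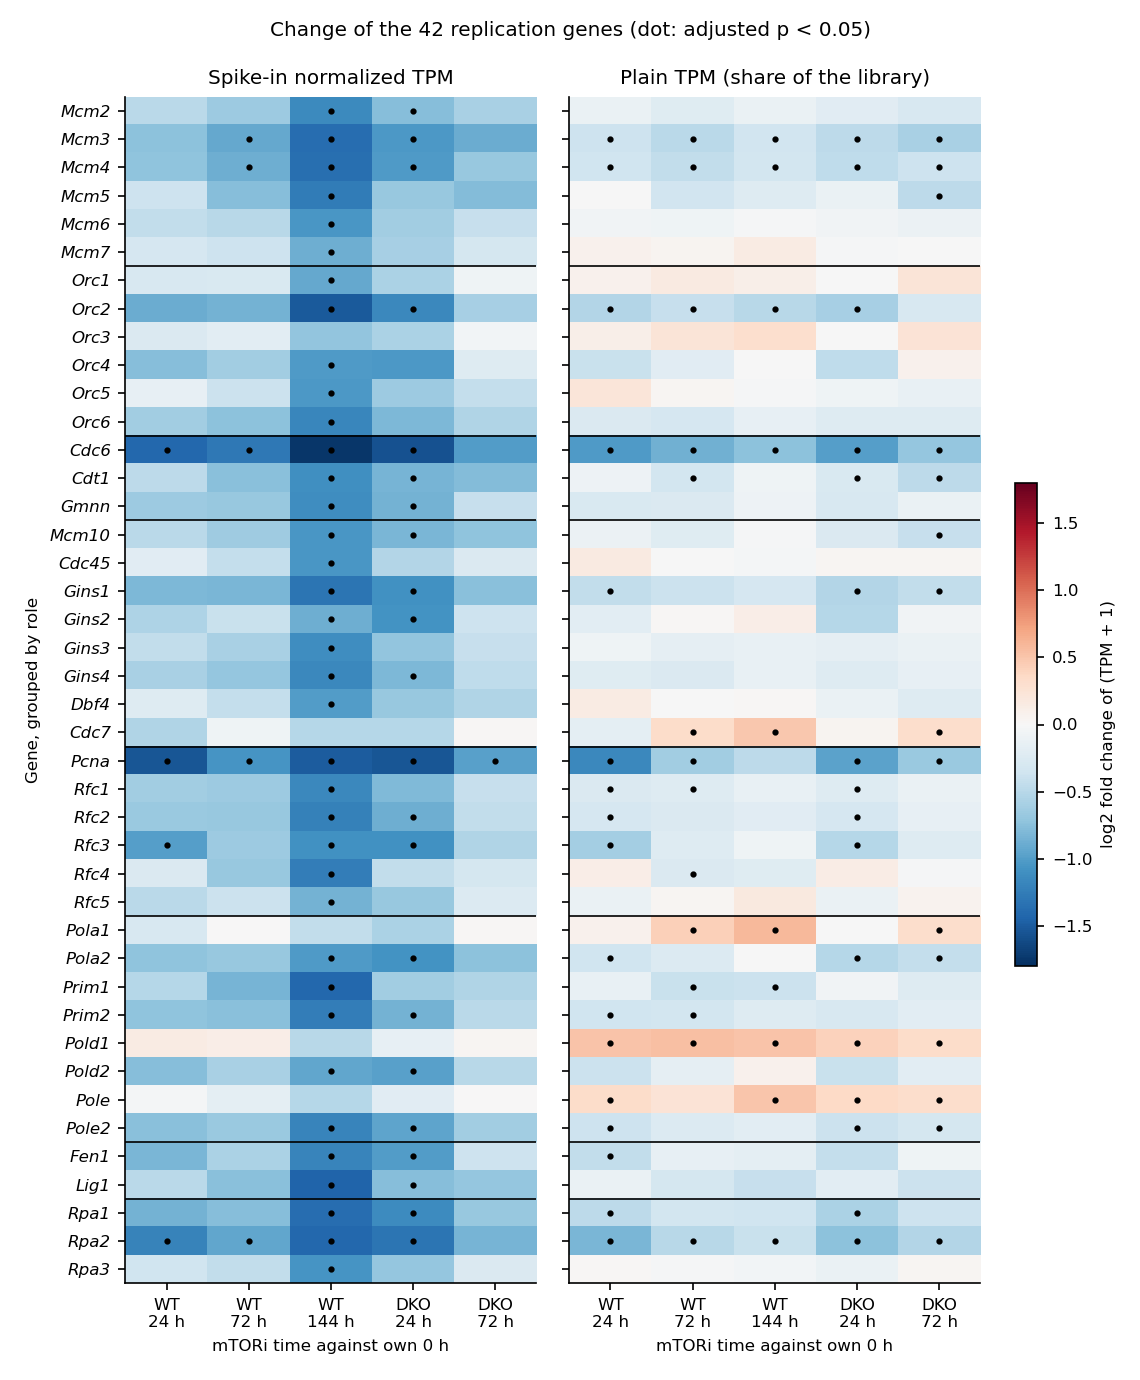
Log2 fold change of each of the 42 genes (rows, grouped by role) at each mTORi time against 0 h of the same genotype (columns), on spike-in normalized TPM (left) and plain TPM (right), where dots mark an adjusted p under 0.05. *Cdc6*, *Pcna* and *Rpa2* carry a dot in each wild-type column on the left, columns that share the 0 h libraries, and *Pola1*, *Pold1*, *Pole* and *Cdc7* the only rows called higher on the right.

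Among the licensing genes, the largest fall of all 42 was that of *Cdc6* (chr11:98907801-98923940 in mm10), whose product brings the MCM ring to the origin. *Cdc6* was 94.2 and 91.7 spike-in normalized TPM at 0 h, 31.9 and 37.1 after 24 h, 43.2 and 32.2 after 72 h and 27.4 and 26.3 after 144 h, where it stood at 28.9% of the 0 h mean. All 6 treated libraries lay far under both untreated ones, and the log2 change at 144 h was −1.75 ± 0.29 (SE, limma adjusted p = 0.000285). It was also called lower as a share, with a change of −0.74 ± 0.12 (limma adjusted p = 0.0016). *Cdt1*, the other loading factor, and *Gmnn*, its inhibitor geminin, were called lower too (−1.10 ± 0.28 and −1.11 ± 0.27), and neither was called as a share (−0.08 and −0.09). Their ratio within a library, in which the spike-in factor cancels, was 1.06 and 1.33 at 0 h and 1.18 and 1.22 after 144 h, overlapping ranges.

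Of the origin recognition complex, which marks origins, 5 of 6 genes were called lower at 144 h. *Orc2* fell most, from 176 and 205 to 65.6 and 66.1 spike-in normalized TPM (−1.51 ± 0.30, limma adjusted p = 0.000868), and it was the only one of the 6 called as a share without the block (−0.49 ± 0.10, limma adjusted p = 0.00588). *Orc3* was not called at −0.71 ± 0.33 (limma adjusted p = 0.0755, and 0.00914 with the block), with 119.7 and 147 at 0 h and 81.0 and 79.98 after 144 h. The other 4 ran from −1.17 (*Orc6*) to −0.92 (*Orc1*). The ratio of *Orc1* to *Orc2* rose from 0.785 and 0.819 at 0 h to between 1.14 and 1.30 in the 6 treated wild-type libraries. The pair was chosen after its values were seen.

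All 6 MCM genes, the helicase ring, were called lower at 144 h. *Mcm3* (−1.37 ± 0.27, limma adjusted p = 0.000917) and *Mcm4* (−1.36 ± 0.27, limma adjusted p = 0.000872) fell most, to 38.7% and 38.9% of their 0 h means, and these 2 were also called lower as a share. *Mcm3* went from 649 and 613 spike-in normalized TPM to 267 and 221, and *Mcm7* from 615 and 575 to 347 and 301. *Mcm7* fell least (−0.88 ± 0.27), and it passed *Mcm3* and *Pcna* to hold the highest mean of the 42 genes at 144 h. The spread of the 6 subunits widened from 1.59-fold at 0 h to 2.10-fold at 144 h. The ratio of *Mcm7* to *Mcm3*, another pair chosen after its values were seen, was 0.948 and 0.938 at 0 h and 1.24 to 1.38 in the 6 treated wild-type libraries. *Mcm7* shares its strand with 3 miRNA genes inside it, and the tables do not show how reads were split.

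Of the 8 helicase activation genes, 7 were called lower at 144 h. *Gins1* fell most (−1.32 ± 0.27, limma adjusted p = 0.00121), followed by *Gins4* (−1.16 ± 0.28), *Gins3* (−1.11 ± 0.31), *Cdc45* (−1.05 ± 0.28), *Mcm10* (−1.04 ± 0.27), *Dbf4* (−1.01 ± 0.31) and *Gins2* (−0.88 ± 0.31). The eighth, the kinase gene *Cdc7* (chr5:106964322-106984432), changed least. *Cdc7* was 40.2 and 42.3 spike-in normalized TPM at 0 h and 28.7 and 28.4 after 144 h, and its change of −0.51 ± 0.30 was not called (limma adjusted p = 0.154, and 0.0441 with the block, which called it lower). As a share it was called higher, from 19.0 and 20.02 to 26.8 and 28.4 plain TPM (0.48 ± 0.08, limma adjusted p = 0.00271). The ratio of *Cdc7* to its activator *Dbf4* was 0.157 and 0.140 at 0 h, 0.128 and 0.108 after 24 h, 0.192 and 0.188 after 72 h and 0.203 and 0.211 after 144 h, lowest at 24 h and highest at 144 h.

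The clamp gene *Pcna* (chr2:132249162-132253314) and all 5 RFC clamp loader genes were called lower at 144 h. *Pcna*, the most abundant of the 42 transcripts in untreated cells, was 802 and 719 spike-in normalized TPM at 0 h, 264 and 258 after 24 h, 435 and 304 after 72 h and 279 and 256 after 144 h. Its 24 h and 144 h libraries overlapped, and both 72 h libraries lay above them. The change at 144 h was −1.50 ± 0.27 (limma adjusted p = 0.000471), and −0.48 ± 0.16 as a share, which was not called without the block (limma adjusted p = 0.0525). Among the loader genes *Rfc4* fell most (−1.24 ± 0.29) and *Rfc5* least (−0.84 ± 0.27), and none was called as a share. The annotation holds 2 pseudogenes named after *Pcna*, whose reads may be split with it.

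Of the 8 polymerase and primase genes, those of the polymerases divided by subunit and those of the primase did not. The 3 catalytic subunits of the polymerases, which carry their active sites, were not called on the spike-in scale at 144 h without the replicate block. *Pola1* (chrX:93304767-93632155), of polymerase alpha, was 124 and 131 spike-in normalized TPM at 0 h and 92.1 and 95.3 after 144 h (−0.44 ± 0.30, limma adjusted p = 0.229). *Pold1* (chr7:44532746-44548849), of polymerase delta, went from 129 and 122 to 93.8 and 83.0 (−0.50 ± 0.27, limma adjusted p = 0.122). *Pole* (chr5:110286306-110337474), of polymerase epsilon, went from 114 and 112 to 85.4 and 72.5 (−0.51 ± 0.29, limma adjusted p = 0.135). With the replicate block *Pold1* and *Pole* were called lower (limma adjusted p = 0.0338 and 0.0377) and *Pola1* was not (limma adjusted p = 0.081). In each of the 3 both 144 h libraries lay under both 0 h libraries, and the fitted change was smaller than in the other 5 genes. As a share of the transcriptome all 3 were called higher, *Pola1* by 0.58 ± 0.10, *Pold1* by 0.52 ± 0.10 and *Pole* by 0.50 ± 0.09. Their accessory partners and the primase were called lower on the spike-in scale. The changes were −1.03 ± 0.28 for *Pola2*, −0.94 ± 0.27 for *Pold2* and −1.19 ± 0.31 for *Pole2*. Those of the primase were −1.41 ± 0.29 for *Prim1*, its catalytic subunit, which makes the RNA primer, and −1.24 ± 0.29 for *Prim2*. *Prim1* was also called lower as a share (−0.39 ± 0.08). *Pola1*, *Pold1*, *Pole*, *Pole2* and *Prim2* overlap other annotated genes on the same strand.

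Both Okazaki fragment genes and all 3 RPA genes were called lower at 144 h. *Lig1*, the ligase that seals the fragments, fell from 418 and 371 to 159 and 132 spike-in normalized TPM (−1.44 ± 0.26, limma adjusted p = 0.000515), and *Fen1*, the nuclease that trims their flaps, to 43.4% of its 0 h mean (−1.19 ± 0.26). RPA coats single-stranded DNA at the fork. *Rpa2* (chr4:132768332-132778752) was 227 and 239 at 0 h, 92.7 and 110.1 after 24 h, 131 and 113 after 72 h and 95.1 and 78.8 after 144 h (−1.42 ± 0.27, limma adjusted p = 0.00067), and it was the only RPA gene called lower as a share without the block (−0.40 ± 0.10). The changes of *Rpa1* and *Rpa3* were −1.38 ± 0.27 and −1.07 ± 0.28.

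How early the genes fell was asked at 24 h. At this time 4 of the 42 genes were called lower on the spike-in scale, *Cdc6*, *Pcna*, *Rfc3* and *Rpa2*, against 8.73% of all genes, and 0 were called higher. The changes were −1.41 ± 0.29 for *Cdc6* (limma adjusted p = 0.00544), −1.54 ± 0.27 for *Pcna* (adjusted p = 0.00184), −1.20 ± 0.27 for *Rpa2* (adjusted p = 0.00833) and −0.99 ± 0.27 for *Rfc3* (adjusted p = 0.0259). The median of the 42 was −0.55 against −0.33 over all genes. At the other end stood *Pold1* at 0.15 ± 0.27 and *Pole* at −0.04 ± 0.29, neither of which was called. The time points of a replicate were handled together, and a fit with the replicate as a block within each genotype called 20 genes lower (25.7% of all genes). On plain TPM 15 genes were called lower (14.1% of all genes) and 2 higher (15.8% of all genes), these being *Pold1* (0.51 ± 0.10) and *Pole* (0.33 ± 0.09). Without wild-type 0 h replicate 1, 0 h replicate 2 or 24 h replicate 1, *Pcna* alone of these genes was called on the spike-in scale (3.12%, 1.58% and 1.46% of all genes called lower), and on plain TPM the total of 17 fell to 8, 10, 9 and 6 with 0 h replicate 1, 0 h replicate 2, 24 h replicate 1 and 24 h replicate 2 left out in turn (22%, 20.3%, 20.8% and 18.5% of all genes).

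**Figure D3:**
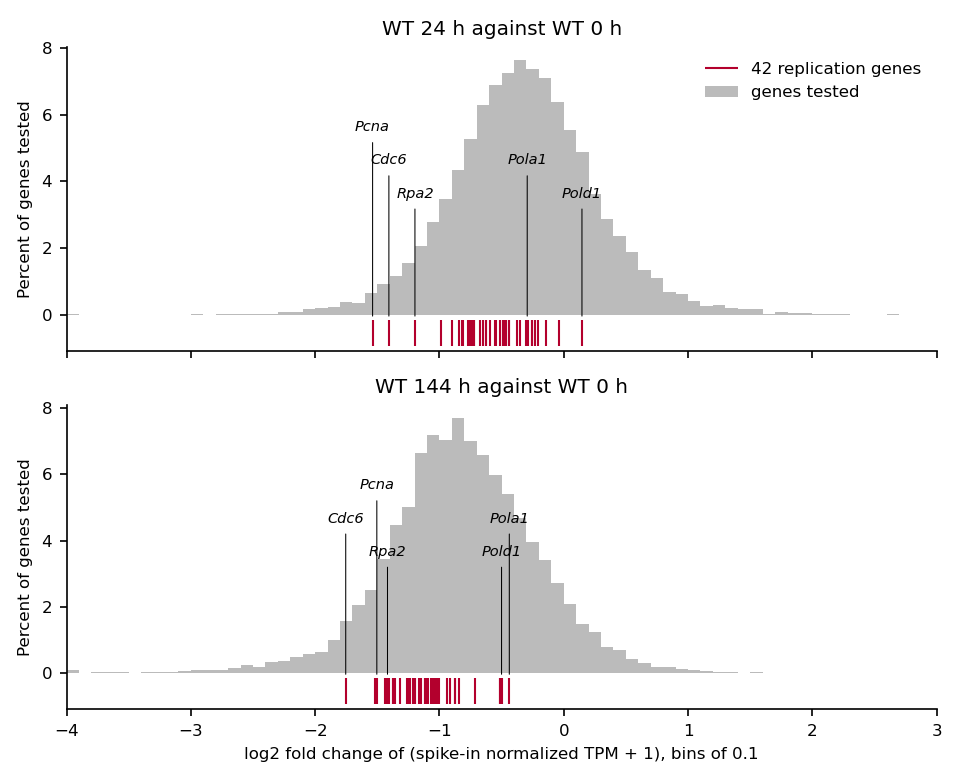
Distribution of the log2 fold change of all 18232 genes tested (grey, percent per bin of 0.1) in wild type at 24 h (top) and 144 h (bottom) against 0 h on the spike-in scale, with red ticks for the 42 replication genes. At 24 h *Pcna*, *Cdc6* and *Rpa2* lie in the left tail while most of the 42 sit in the body, and at 144 h the body itself has moved to a median of −0.83.

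At 72 h in wild type 5 genes were called lower on the spike-in scale (*Mcm3*, *Mcm4*, *Cdc6*, *Pcna* and *Rpa2*), against 7.6% of all genes, and 0 higher. Their changes were −0.92 ± 0.27, −0.88 ± 0.27, −1.29 ± 0.29, −1.06 ± 0.27 and −0.93 ± 0.27. *Pold1* (0.12 ± 0.27) and *Pola1* (0.01 ± 0.30) were the highest of the 42 and were not called. With the replicate block 26 genes were called lower (25.4% of all genes). On plain TPM 11 were called lower (11.4% of all genes) and 3 higher (12.6% of all genes), the latter being *Cdc7*, *Pola1* and *Pold1*. The calls at this time rested on every library, since leaving out 0 h replicate 1, 0 h replicate 2 or 72 h replicate 2 left 0 called on the spike-in scale (2.33%, 0.883% and 0.318% of all genes lower), and leaving out 72 h replicate 1 left 2 (2.44%). On plain TPM the total of 14 fell to 7 without 0 h replicate 1, 8 without 0 h replicate 2 and 7 without 72 h replicate 2 (15%, 15% and 11.2% of all genes).

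**Figure D4:**
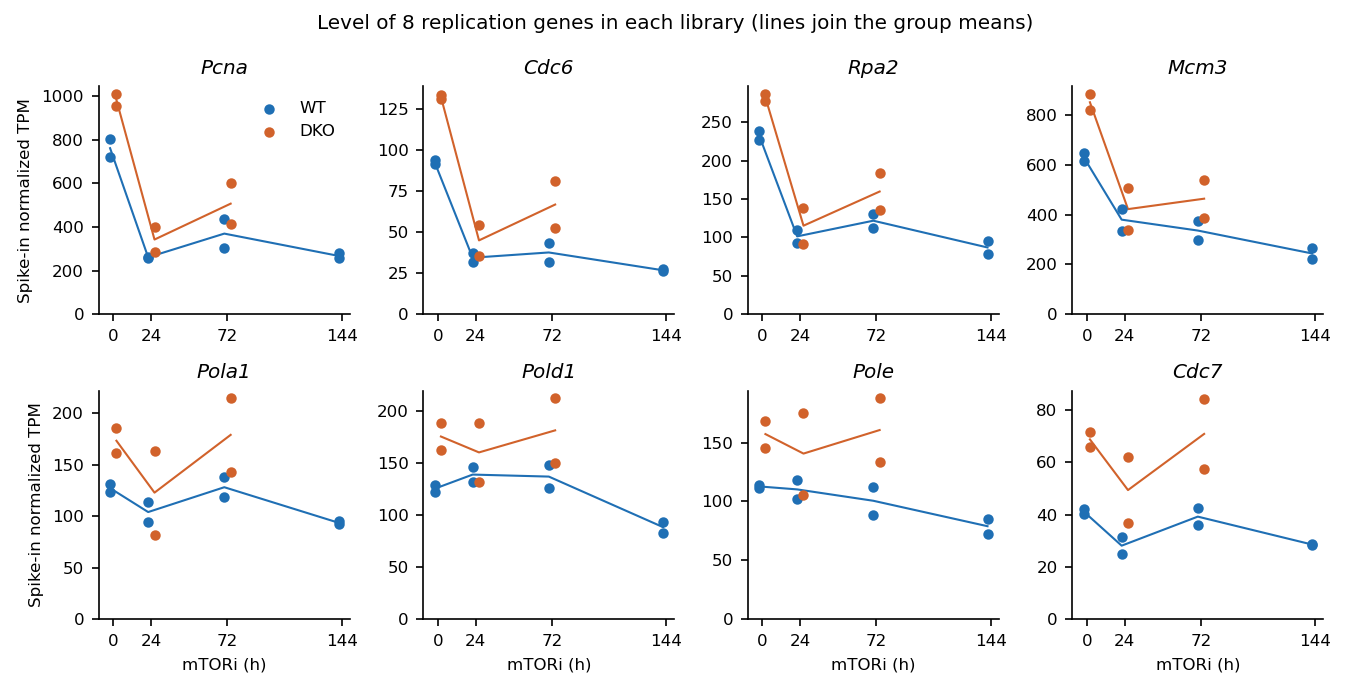
Spike-in normalized TPM of 8 replication genes in each library against hours of mTORi, wild type in blue and the libraries labelled DKO in orange, with lines through the group means of 2 libraries. *Pcna*, *Cdc6* and *Rpa2* (top) were called lower at 24 h in both genotypes and *Mcm3* (top) in DKO but not in wild type (limma adjusted p = 0.0883), and *Pola1*, *Pold1*, *Pole* and *Cdc7* (bottom) stay nearer to their 0 h level.

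The course between treated times differed by gene. From 24 to 72 h, 0 of the 42 genes were called in either genotype on the spike-in scale (limma, 0 at an unadjusted p under 0.05 in wild type and 3 in DKO, with 0.987% and 1.42% of all genes called), and the fit with the replicate block called 0 in wild type and *Orc4* higher in DKO (12.7% of all genes called higher). Without DKO 24 h replicate 1, 13 genes were called higher in DKO (31.5% of all genes). On plain TPM 3 were called in wild type (11% of all genes called), *Cdc7* and *Pola1* higher and *Rfc4* lower, and 0 in DKO (8 at an unadjusted p under 0.05, 5.96% of all genes called). With the block 7 in wild type and 2 in DKO were called on plain TPM (17.7% and 12.8% of all genes). From 24 to 144 h in wild type, 4 genes were called lower on the spike-in scale, *Mcm5*, *Rfc4*, *Prim1* and *Lig1* (14.7% of all genes called lower). With the replicate block there were 20 (40.5% of all genes), while leaving out 24 h replicate 2 or either 144 h library left 0 (2.49%, 3.7% and 2.73%). Over the same step on plain TPM 7 were called higher (12.6% of all genes), *Cdc7*, *Pcna*, *Rfc3*, *Pola1*, *Pola2*, *Pold2* and *Rpa2*, and *Rfc4* was called lower (10.1% of all genes). *Pcna* went from 184 and 139 plain TPM at 24 h to 263 and 204 after 72 h and 260.4 and 256 after 144 h (0.69 ± 0.16, limma adjusted p = 0.0138), against 380.1 and 340.4 at 0 h. Both 24 h libraries held a lower share of *Pcna* than any other wild-type library, and the 144 h libraries lay between those of 24 h and 0 h. *Rfc3* went the same way, from 54.7 and 49.9 to 37.5 and 30.5 and back to 51.8 and 47.5. From 72 to 144 h, 0 genes were called on the spike-in scale (limma, 8 at an unadjusted p under 0.05, 0.389% of all genes called lower). The estimates ran from −0.69 (*Lig1*) to −0.34 (*Cdt1*). The block called 4 lower, *Orc2*, *Pold1*, *Fen1* and *Lig1* (18.5% of all genes). On plain TPM 0 were called (limma, 2 at an unadjusted p under 0.05, 0.357% of all genes called). On the spike-in scale the median of −0.49 was near that of all genes, −0.50, for this step.

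The subunits of 1 polymerase can be compared within a library, where the spike-in factor cancels. The ratio of *Pold1* to *Pold2* was 0.845 and 0.997 in wild type at 0 h, 1.71 and 1.77 after 24 h, 1.45 and 1.57 after 72 h and 1.24 and 1.25 after 144 h. In DKO it was 0.979 and 0.898, then 1.75 and 1.59, then 1.35 and 1.36. Both genotypes peaked at 24 h. The ratio of *Pola1* to *Pola2* was 1.02 and 1.24 at 0 h and 1.46 to 1.93 in the 6 treated wild-type libraries, and 1.01 and 0.986 at 0 h and 1.25 to 1.76 after it in DKO. The ratio of *Pole* to *Pole2* was 1.55 and 1.42 at 0 h and 2.00 to 2.68 under mTORi in wild type, and 1.76 and 1.71 at 0 h and 2.71 to 3.24 under mTORi in DKO. In all 3 the treated libraries lay above the untreated ones in both genotypes. The ratio of the primase subunits *Prim1* and *Prim2* overlapped instead, with 1.75 and 2.13 at 0 h and 1.63 to 2.38 under mTORi in wild type. These ratios are descriptions and the pairs were set after the fold changes were seen.

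**Figure D5:**
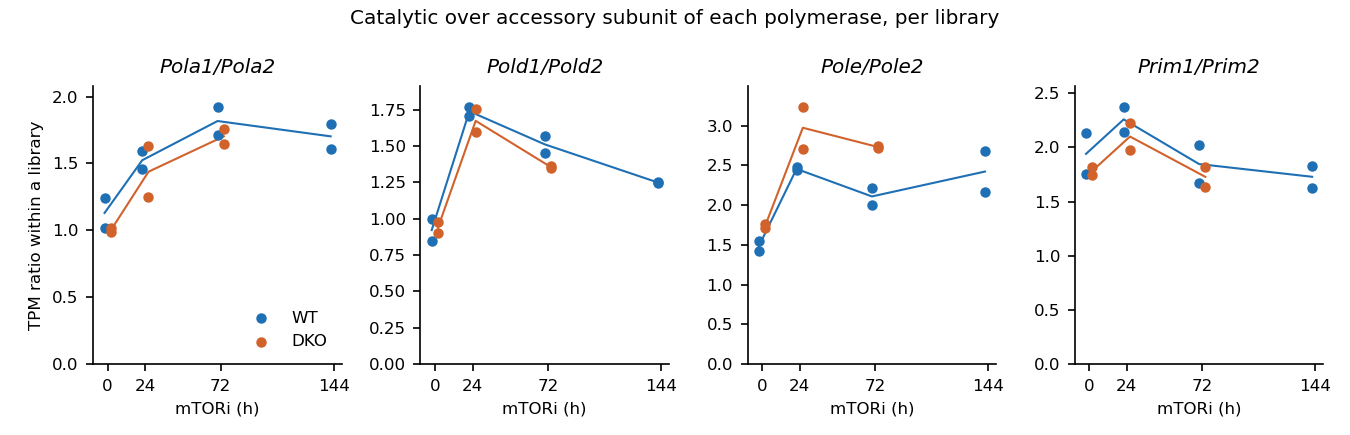
Ratio of the TPM of 2 subunits within each library against hours of mTORi, wild type in blue and the libraries labelled DKO in orange, with lines through the group means. *Pola1*/*Pola2*, *Pold1*/*Pold2* and *Pole*/*Pole2* rise above their 0 h values in every treated library, and *Prim1*/*Prim2* overlaps its 0 h values.

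Whether cells labelled DKO made the same change was asked at 24 and 72 h. At 24 h 22 of the 42 genes were called lower on the spike-in scale and 0 higher, against 18.7% of all genes, with a median of −0.80 against −0.49. *Cdc6* was 131 and 134 spike-in normalized TPM at 0 h and 54.5 and 35.6 after 24 h (−1.57 ± 0.29, limma adjusted p = 0.00173), and *Pcna* went from 955 and 1008 to 401 and 284 (−1.54 ± 0.27, limma adjusted p = 0.00114). *Rpa2* fell from 287 and 278 to 139 and 91.7 (−1.31 ± 0.27). These 3 and *Rfc3* were the 4 genes called in wild type at 24 h, and in both genotypes their 24 h libraries lay below their 0 h libraries. The other 18 called were *Mcm2*, *Mcm3*, *Mcm4*, *Orc2*, *Cdt1*, *Gmnn*, *Mcm10*, *Gins1*, *Gins2*, *Gins4*, *Rfc2*, *Pola2*, *Prim2*, *Pold2*, *Pole2*, *Fen1*, *Lig1* and *Rpa1*, with changes from −1.16 (*Orc2*) to −0.77 (*Lig1*). *Pold1* (−0.15 ± 0.27) and *Pole* (−0.20 ± 0.29) changed least and were not called. The count depended on single libraries, and the spike-in factors of the pair at 24 h differed by 1.65-fold. Without DKO 24 h replicate 1 it was 40 (47.7% of all genes), and without DKO 0 h replicate 1, DKO 0 h replicate 2 or DKO 24 h replicate 2 it was 4, 4 and 3 (4.17%, 9% and 5.35%). With the replicate block it was 36 (38.1% of all genes). On plain TPM 14 were called lower (13.3% of all genes) and 2 higher (11.6% of all genes), *Pold1* and *Pole* as in wild type, and the total of 16 fell to 6 without DKO 0 h replicate 2 and 9 without DKO 24 h replicate 1 (14.7% and 16.6% of all genes).

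At 72 h in DKO 1 gene was called lower on the spike-in scale, *Pcna*, at 599.5 and 413 spike-in normalized TPM (−0.98 ± 0.27, limma adjusted p = 0.0496), against 2.95% of all genes, and 0 higher. Without DKO 0 h replicate 1, DKO 0 h replicate 2 or DKO 72 h replicate 2 it was not called (0.878%, 0.965% and 0.362% of all genes lower), and with DKO 72 h replicate 1 left out 2 genes were (2.01%). *Cdc6* stood at 81.6 and 52.4 (−1.01 ± 0.29, limma adjusted p = 0.0621). The catalytic subunits *Pold1* (0.03 ± 0.27) and *Pola1* (0.02 ± 0.30) were the 2 highest, and the median was −0.47 against −0.12 over all genes. The replicate block called 12 lower (13.2% of all genes). On plain TPM, 11 were called lower (9.06% of all genes) and 4 higher (17.2% of all genes). The 4 were *Cdc7*, *Pola1*, *Pold1* and *Pole*, the same 4 that were called higher as a share in wild type at 144 h. The 11 were *Mcm3*, *Mcm4*, *Mcm5*, *Cdc6*, *Cdt1*, *Mcm10*, *Gins1*, *Pcna*, *Pola2*, *Pole2* and *Rpa2*, of which 6 (*Mcm3*, *Mcm4*, *Cdc6*, *Cdt1*, *Pcna* and *Rpa2*) were also among the 11 called lower as a share in wild type at 72 h. The plain total of 15 fell to 5, 4 and 4 without DKO 0 h replicate 2, DKO 72 h replicate 1 and DKO 72 h replicate 2 (12.4%, 11% and 12.5% of all genes).

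Compared directly, DKO and wild type differed in 0 of the 42 genes at 0, 24 and 72 h on the spike-in scale. The shares of all genes called higher were 0.0274%, 0.011% and 0.302%. An unadjusted p under 0.05 (limma) was met by 3, 1 and 16 of the 42. No share of all genes is given at this looser threshold. A replicate block across all libraries also called 0, while the block with the DKO replicate numbers crossed, added after the data were seen, called 4 higher in DKO at 72 h (11.7% of all genes) and 0 at 0 and 24 h. The medians were 0.43, 0.17 and 0.57, beside 0.29, 0.10 and 0.49 over all genes. At 0 h the 42 estimates ran from 0.24 (*Pole2*) and 0.28 (*Rpa2*) to 0.72 (*Cdc7*) and 0.82 (*Rpa1*). *Rpa1* was 325 and 314 spike-in normalized TPM in wild type and 504 and 633 in DKO at 0 h (0.82 ± 0.27, limma adjusted p = 0.41), and 201 and 175 in wild type against 434 and 285 in DKO after 72 h (0.90 ± 0.27, limma adjusted p = 0.136). Both DKO libraries were above both wild-type libraries at each of these times, and the difference was not called. *Cdc7* was 40.2 and 42.3 in wild type and 71.6 and 66.0 in DKO at 0 h, 25.0 and 31.3 against 61.9 and 36.9 after 24 h, and 42.4 and 36.1 against 84.4 and 57.4 after 72 h. Both DKO libraries lay above both wild-type libraries at each time. On the spike-in scale its differences of 0.72 ± 0.30, 0.75 ± 0.30 and 0.82 ± 0.30 were not called. On plain TPM *Cdc7* was the single gene of the 42 called higher in DKO at 24 h (0.65 ± 0.08, limma adjusted p = 0.00801, 0.581% of all genes) and at 72 h (0.40 ± 0.08, limma adjusted p = 0.0312, 3.17% of all genes), and 0 genes were called at 0 h (limma, 4 at an unadjusted p under 0.05, 0.422% of all genes called higher). The call at 24 h was lost without wild-type 24 h replicate 2 or DKO 24 h replicate 1, and that at 72 h without any 1 of the 4 libraries.

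At the low end of the direct comparison stood *Dbf4* and *Orc5* at 24 h (−0.17 ± 0.31 and −0.17 ± 0.31) and *Dbf4* and *Pole2* at 72 h (0.17 ± 0.31 and 0.29 ± 0.31). At 24 h the kinase gene *Cdc7* and the gene of its activator lay at opposite ends of the 42. The ratio of *Cdc7* to *Dbf4* in DKO was 0.199 and 0.208 at 0 h, 0.211 and 0.245 after 24 h and 0.306 and 0.294 after 72 h, above both wild-type libraries at each of these times. The change in DKO minus that in wild type, tested as an interaction, was called in 0 of the 42 genes at 24 h and 0 at 72 h (limma, 0 at an unadjusted p under 0.05 at either time, 0.00548% and 0% of all genes called), and on plain TPM in 0 at both times too (limma, 0 at an unadjusted p under 0.05, 0% of all genes called). The response differences ran from −0.53 (*Gins2*) to 0.03 (*Cdc7*) at 24 h and from −0.11 (*Dbf4*) to 0.39 (*Orc4*) at 72 h, with SEs of 0.44, 0.42, 0.43 and 0.53. These errors are wide, and a missed threshold does not show that the responses are alike.

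Beyond the 42, 29 other genes of forks and origins were followed, chosen by name with earlier results known. At 144 h in wild type 20 of the 29 were called lower and 0 higher on the spike-in scale (50.5% of all genes lower), with a median of −0.95 against −0.83 over all genes. On plain TPM 5 were called lower and 5 higher (11.7% and 15.6% of all genes). *Pole4* (−1.73 ± 0.27), a small subunit of polymerase epsilon, and *Rnaseh2b* (−1.69 ± 0.32), of the enzyme that removes RNA from DNA, fell most. *Mcm8* (−0.15 ± 0.32), a relative of the MCM ring that acts in repair, and *Top2a* (−0.41 ± 0.28), the topoisomerase that separates sister chromatids, were not called on the spike-in scale. As a share *Mcm8* (0.83 ± 0.11, limma adjusted p = 0.000677) and *Top2a* (0.62 ± 0.08, limma adjusted p = 0.000567) were called higher. *Pole4* was also called lower as a share (−0.71 ± 0.11). At 24 h 2 of the 29 were called lower in wild type and 7 in DKO on the spike-in scale (8.73% and 18.7% of all genes), and at 72 h 3 and 1 (7.6% and 2.95%), with 0 higher. On plain TPM 8 were called lower and 5 higher in wild type at 24 h (14.1% and 15.8% of all genes), and 6 and 2 at 72 h (11.4% and 12.6%). In DKO plain TPM gave 7 lower and 4 higher at 24 h (13.3% and 11.6%), then 5 lower and 4 higher at 72 h (9.06% and 17.2%).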

How the data were processed

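RNA was extracted from the same number of sorted cells per sample, and libraries were made from a fixed mass of total RNA with ribosomal RNA depletion. ERCC spike-in RNA was added, at a step not given in the sources used here. Per the submitters' processing notes, reads were trimmed with cutadapt (2.4), aligned to mm10 with STAR (2.7.3a) and quantified with StringTie (2.0). The authors deposited 1 table of TPM per library, in which TPM sum to 1000000. TPM hold no counts, so the depth of each library is unknown here and no counting interval is given.

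TPM were summed per gene identifier and multiplied by the spike-in factor of the library, read as the median ratio of the study's own spike-in normalized values to the deposited TPM over the genes both give. These factors equal 76 divided by a whole number from 27 to 76, so they are coarse, and an error in 1 of them moves every gene of that library together. Counts of genes called are therefore given on plain TPM too in each comparison. The 18232 genes that averaged 1 or more on the spike-in scale were kept. limma (3.58.1, R 4.3.3; lmFit, contrasts.fit, eBayes with trend) was run on log2(TPM + 1) with a pseudocount of 1, which understates changes of low genes, in 1 fit of the 7 groups with 7 residual degrees of freedom. p-values were adjusted by Benjamini-Hochberg over all 18232 genes, with a threshold of 0.05. The scripts were tested on simulated data.

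The members, the other gene lists and the motif were chosen with earlier results of these data known. Levels may be named for any member. For fold changes, any member was named at 144 h in wild type, and in other comparisons those called and the 2 lowest and 2 highest. Of the other lists the 2 lowest and 2 highest at 144 h in wild type were named. The labels do not say that replicates were separate cultures, although the study calls them biological replicates, so p-values measure the spread between these libraries. The study states that the time points of a replicate were processed in parallel, so replicate numbers pair libraries within a genotype. The deviations of same-numbered libraries from their group means correlated at 0.0622 to 0.3985 in the 6 wild-type pairs and 0.222 to 0.3406 in the 3 DKO pairs across genes, which are not independent replicates, and at −0.5008 to 0.1161 between genotypes, where 10 of 12 lay below 0. Alternatives were plain TPM, a pseudocount of 0.1, no filter and a mean of at least 5, replicate blocks, fits of only the groups compared and each library left out. The steps between treated times, the crossed block, plain TPM with the block or without 1 library, and the subunit ratios were added after the data were seen. Promoters came from RefSeq (GRCm38.p6), and figures were drawn with matplotlib (3.10.9). Of the 42 members 21 overlap another annotated gene, 11 of them on the same strand.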

Additional observations from a re-analysis of the deposited data

How the results depend on the processing

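With 2 libraries a group and coarse spike-in factors, counts of calls moved with the processing more than directions did. Of 1352 values of single genes under an alternative 1303 kept their direction and 49 reversed, 21 of these on plain TPM and 27 with 1 library left out. The cause of the changes below was not tested, except that the filter and the fits of only the groups compared change how many genes or libraries enter. Depth could not be judged from TPM.

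On plain TPM the counts of genes called were 17 in wild type at 24 h (4 on the spike-in scale), 14 at 72 h (5), 10 at 144 h (37), 15 in DKO at 72 h (1), 1 at each of 24 and 72 h for DKO compared with wild type (0 and 0), and 3 and 8 from 24 to 72 h and from 24 to 144 h in wild type (0 and 4). Blocking on the replicate within a genotype gave 20, 26, 36, 12, 4, 20 and 1 for wild type at 24 and 72 h, DKO at 24 and 72 h, wild type from 72 to 144 h and from 24 to 144 h, and DKO from 24 to 72 h. A block across all libraries gave 7 in wild type at 24 h (9% of all genes). These blocks changed no other count by over 1.5 times on the spike-in scale. The block within a genotype was not fitted for DKO against wild type, where the block across all libraries called 0. With the replicate numbers of DKO crossed, added after the data were seen, the counts were 15 in wild type at 24 h, 14 at 72 h, 7 in DKO at 72 h, 8 from 24 to 144 h and 4 in DKO against wild type at 72 h (20.7%, 19%, 9.75%, 30.8% and 11.7% of all genes in the same direction). Fits of only the groups compared gave 16, 27 and 24 in wild type at 24 h, at 72 h and from 72 to 144 h, 17 from 24 to 144 h, 2 in DKO at 24 h and 0 at 72 h (19.8%, 25.9%, 50%, 35%, 2.85% and 2.62% of all genes lower). With no filter there was 1 in wild type at 72 h, 11 in DKO at 24 h, 0 in DKO at 72 h and 0 from 24 to 144 h (1.64%, 5.93%, 1.07% and 2.94%). A mean of at least 5 gave 7 in wild type at 24 h (12.4%), and a pseudocount of 0.1 gave 0 in DKO at 72 h (2.19%). Leaving out 1 library in turn gave 1 to 3 in wild type at 24 h, 0 to 2 at 72 h, 20 to 31 at 144 h, 3 to 40 in DKO at 24 h, 0 to 2 at 72 h, 0 to 4 from 24 to 144 h and 0 to 13 in DKO from 24 to 72 h, and 0 in the others. On plain TPM the ranges were 6 to 10, 7 to 12 and 6 to 9 in wild type at 24, 72 and 144 h, 6 to 13 and 4 to 11 in DKO at 24 and 72 h, and 0 to 1 and 0 to 0 for DKO compared with wild type at these times. In each of these fits the lone library of a group is assumed to vary like the others.

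On plain TPM the direction reversed for *Pole* in wild type at 24 h (0.33), and at 144 h for *Mcm7* (0.15), *Orc1* (0.10), *Orc3* (0.30), *Gins2* (0.12), *Dbf4* (0.017), *Cdc7* (0.48), *Rfc5* (0.18), *Pola1* (0.58), *Pold1* (0.52), *Pold2* (0.078) and *Pole* (0.50). It also reversed from 72 to 144 h for *Cdt1* (0.26) and *Pole* (0.25), in DKO at 24 h for *Pold1* (0.41) and *Pole* (0.36), in DKO against wild type for *Pole2* (−0.044) and *Rpa2* (−0.016) at 0 h and *Dbf4* (−0.24) and *Pole2* (−0.12) at 72 h, and for *Pcna* in the response difference at 24 h (0.20, and 0.000556 with a pseudocount of 0.1). With 1 library left out the log2 changes crossed 0 for *Pole* in wild type at 24 h (−0.14 to 0.070), *Pola1* at 72 h (−0.10 to 0.11), *Pold1* and *Pole* in DKO at 24 h (−0.40 to 0.11 and −0.56 to 0.16) and *Pola1* and *Pold1* in DKO at 72 h (−0.27 to 0.31 and −0.22 to 0.28). They also did in DKO against wild type for *Orc5* and *Dbf4* at 24 h (−0.63 to 0.29 and −0.65 to 0.31) and *Dbf4* at 72 h (−0.075 to 0.42), and in the response differences for *Cdc7* and *Pcna* at 24 h (−0.34 to 0.40 and −0.25 to 0.25) and *Dbf4* and *Pold1* at 72 h (−0.35 to 0.14 and −0.35 to 0.16).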

Other observations

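The genes of the E2F transcription factors, their DP partners and the pocket proteins that bind them were listed as the regulators known to act on replication genes (13 genes, chosen with earlier results known). In wild type at 144 h 5 of the 13 were called lower on the spike-in scale (50.5% of all genes) and 0 higher, with a median of −0.81, against −0.83 over all genes. E2f2 (−1.14 ± 0.32, limma adjusted p = 0.00809), an activating E2F, and *Tfdp1* (−1.07 ± 0.28, limma adjusted p = 0.00523), the main DP partner, fell most. *Tfdp1* was 302 and 277 spike-in normalized TPM at 0 h, 99.9993 and 118 after 24 h (−1.40 ± 0.28, limma adjusted p = 0.00425), 182 and 126 after 72 h and 139.7 and 135 after 144 h, so that both 24 h libraries were the lowest of wild type. *Tfdp2* (−0.07 ± 0.29) and E2f6 (−0.14 ± 0.32), a repressor of the family, were not called.

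On plain TPM 0 of the 13 were called lower and 5 higher at 144 h (limma, 11.7% and 15.6% of all genes). These were *Tfdp2* (0.94 ± 0.11) and E2f6 (0.84 ± 0.11) and, named after their values were seen, *Rbl1* (0.78 ± 0.20), which encodes the pocket protein p107, E2f7 (0.52 ± 0.12) and E2f1 (0.45 ± 0.09). On the spike-in scale 3 of the 13 were called lower in wild type at 24 h and 1 at 72 h, and 4 and 0 in DKO at these times (8.73%, 7.6%, 18.7% and 2.95% of all genes), with 0 called higher. On plain TPM 2 were called lower and 3 higher in wild type at 24 h (14.1% and 15.8% of all genes) and 1 and 4 at 72 h (11.4% and 12.6%). In DKO plain TPM gave 2 lower and 2 higher at 24 h (13.3% and 11.6%), then 1 lower and 4 higher at 72 h (9.06% and 17.2%).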
